A study of Mus musculus with 9 samples.

Results

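The ATP-binding cassette (ABC) transporter genes were taken from the gene table by their symbols, from the rows named Abca to Abcg followed by a number and, for some, a letter. They are 47 genes of the 54146 in the table, with 16 in subfamily A, 9 in B, 10 in C, 2 in D, 1 in E, 3 in F and 6 in G. Of these, 28 reached a normalized count of 10 in no fewer than 4 mice and were tested, among 14410 genes tested in all. The rule on symbols used no expression value, although the genes were chosen with earlier results of these data known.

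ABC transporters use the energy of ATP to move substrates across membranes, and most carry paired ATP-binding domains and paired membrane domains. Subfamily A moves lipids, B holds drug, peptide and mitochondrial transporters, C moves conjugated drugs, bile salts and organic anions, D serves peroxisomes and lysosomes, and G moves sterols and drugs. The E and F proteins have the ATP-binding domains without the membrane part and act on ribosomes. In the colon, drug efflux pumps such as P-glycoprotein (Abcb1a) and breast cancer resistance protein (Abcg2) sit on the luminal face of the epithelial cell and return compounds to the gut content, while Abcc3 sits on the blood-facing side.

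RNA-seq was available from 9 C57BL/6J mice at 15 wk of age, 5 ApcMin/+ mice (2 females, 3 males) and 4 ApcMin/+; p16cis/cis mice (3 females, 1 male). All 9 carried the ApcMin mutation, a heterozygous germline change of Apc that gives intestinal tumors, and no mouse without it was included. The p16cis allele, present on both chromosomes in the second group, holds a knocked-in cis-element next to p16 (Cdkn2a) from which DNA methylation spreads over the p16 promoter. The labels call the tissue colonic mucosa and the methods state that RNA came from colonic crypts. The paper describes this mucosa as normal-appearing. The comparison asks how ABC transporter RNA in such mucosa of ApcMin/+ mice differed with the p16 epimutation.

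Recovered reads on genes numbered 15745098 to 17885918 in ApcMin/+ and 13523500 to 14900228 in ApcMin/+; p16cis/cis mice. Mitochondrial genes took 8.74% to 15.6% and 19.3% to 29.8% of them, with no overlap between the genotypes. Cdkn2a was listed at 0 in all 9 mice, so its RNA gave no check of the genotype labels. Pan-epithelial markers (5 tested) were high in every mouse, with summed normalized counts of 111885 to 149395 and 106553 to 136114, and 0 of the 5 passed between genotypes by limma or edgeR (3 had an unadjusted p under 0.05 and 3 passed by DESeq2).

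ABC transporter genes that passed the test were lower in the ApcMin/+; p16cis/cis mice. The test called 5 genes lower, namely Abca12, Abcb1a, Abcc3, Abcc5 and Abcg2, and 0 higher, at an adjusted p under 0.05 (limma on log2(normalized count + 1), Benjamini-Hochberg over all genes tested). These are 5 of 28 tested genes (17.9%), where 8.75% of all tested genes were lower and 8.14% higher by the same rule. With a fold change over 2 as well, 4 genes were lower (Abca12, Abcb1a, Abcc5 and Abcg2; 14.3%) and 0 higher, against 1.64% and 1.83% of all tested genes. Of the genes with a positive log2 fold change, Abca2 and Abcc10 had an unadjusted p under 0.05 (limma), 0 passed by edgeR and 1, Abcc10, by DESeq2. In all 5 lower genes the values of the genotypes did not overlap, and among the 28 tested genes these were the only ones without overlap, against 8.95% of all tested genes that lay apart and lower and 7.24% that lay apart and higher. The remaining 23 tested genes did not pass, and the median log2 fold change over the 28 was -0.10, against -0.00 over all genes tested. An unadjusted p under 0.05 was found for 11 of the 28. The 4 genes with a fold change over 2 became 2 with sex as a covariate, 1 in females only, 1 after a correction for GC content and length, and 0 with Bonferroni adjustment or with the mitochondrial share as a covariate. That count also depended on single mice, with 2 genes past both limits without ApcMin/+ replicate 4 and 2 without ApcMin/+; p16cis/cis replicate 4.

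**Figure D1:**
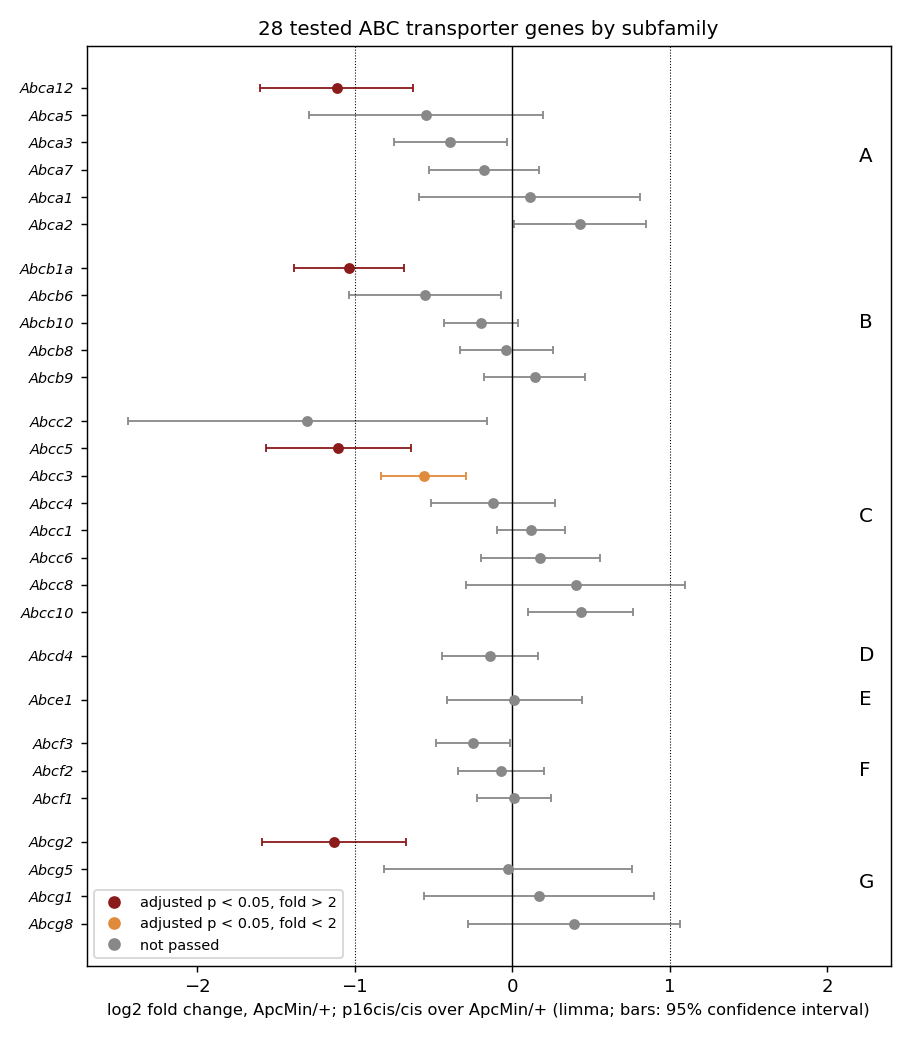
The 28 tested ABC transporter genes by subfamily, with the log2 fold change of ApcMin/+; p16cis/cis over ApcMin/+ mice on the x axis and 95% confidence intervals as bars. Dotted lines mark a fold change of 2. Abca12, Abcb1a, Abcc5 and Abcg2 lie past the left line with an adjusted p under 0.05, Abcc3 (-0.56) lies between the lines, and no gene to the right of 0 passed.

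The DNA just upstream of the start sites is printed for Abca12, Abcc5 and Abcg2, genes lower by more than 2-fold, because CpG sites are what DNA methylation acts on and these promoters differ widely in them. Each run is the 250 bases before a RefSeq start (GRCm38.p6), 5′ to 3′ on the gene's strand, with CpG dinucleotides in capitals. Abcg2 has 3 RefSeq starts, and its counts do not say which of them was used. No methylation was measured in these files, and its part in the lower RNA of these genes was not tested. From embryonic fibroblasts, the paper reports that the cis-element acted specifically on the p16 promoter and left neighboring promoters of that locus unaffected.
Abca12, chr1:71414911-71415160, - strand: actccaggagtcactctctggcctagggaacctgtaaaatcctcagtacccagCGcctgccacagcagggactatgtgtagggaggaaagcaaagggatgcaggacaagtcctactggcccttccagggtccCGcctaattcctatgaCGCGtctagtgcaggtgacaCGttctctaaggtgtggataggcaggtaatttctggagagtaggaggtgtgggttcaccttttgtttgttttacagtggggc
Abcc5, chr16:20426395-20426644, - strand: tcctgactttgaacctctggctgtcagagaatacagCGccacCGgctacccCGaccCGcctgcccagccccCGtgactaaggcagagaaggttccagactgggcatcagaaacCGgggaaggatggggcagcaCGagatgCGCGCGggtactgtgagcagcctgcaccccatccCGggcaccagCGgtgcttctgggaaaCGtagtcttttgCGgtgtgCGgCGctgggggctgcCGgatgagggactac
Abcg2 start 1, chr6:58584283-58584532, + strand: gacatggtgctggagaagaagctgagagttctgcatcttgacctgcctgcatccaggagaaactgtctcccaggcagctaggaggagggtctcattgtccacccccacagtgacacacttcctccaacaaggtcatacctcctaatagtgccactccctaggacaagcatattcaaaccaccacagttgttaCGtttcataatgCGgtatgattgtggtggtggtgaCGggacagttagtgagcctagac
Abcg2 start 2, chr6:58596422-58596671, + strand: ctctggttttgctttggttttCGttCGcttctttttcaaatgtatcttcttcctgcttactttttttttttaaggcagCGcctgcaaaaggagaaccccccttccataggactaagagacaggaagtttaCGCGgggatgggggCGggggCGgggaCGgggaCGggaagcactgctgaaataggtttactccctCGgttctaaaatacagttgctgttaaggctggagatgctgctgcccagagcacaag
Abcg2 start 3, chr6:58640296-58640545, + strand: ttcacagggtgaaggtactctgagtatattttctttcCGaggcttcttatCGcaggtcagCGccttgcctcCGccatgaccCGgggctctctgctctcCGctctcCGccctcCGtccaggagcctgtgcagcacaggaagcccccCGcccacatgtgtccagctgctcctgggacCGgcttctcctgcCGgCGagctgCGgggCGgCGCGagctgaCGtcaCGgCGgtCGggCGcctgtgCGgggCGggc

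The windows held 5 CpG sites in Abca12, 17 in Abcc5, and 3, 10 and 23 at the 3 starts of Abcg2 in genome order. Over 32807 RefSeq windows of the same length the median was 6, with quartiles of 2 and 16. GC content was 53.2% for Abca12, 64.0% for Abcc5 and 51.2%, 50.0% and 67.6% for the starts of Abcg2. A set of 7 short motifs was searched on both strands, each given here with the share of all windows that hold it. They were the start-site motif TATAAA, in 12.4% of windows, and the general promoter motif CCAAT, in 33.8%. The GC-rich box GGGCGG was in 32.7%, and the half-site of nuclear receptors, AGGTCA, in 14%. The aryl hydrocarbon receptor core GCGTG was in 28.1%, the antioxidant response core TGACNNNGC in 10.2% and the Cdx2 core TTTATG in 10.8%. None of these letters occurred in the windows of Abca12 and Abcc5. Start 1 of Abcg2 had half-site matches beginning at -212 and -121, counted from the start, start 2 had GC boxes beginning at -109 and -103, and start 3 had 4 GC boxes and 1 half-site match at -197. A match is a description of the letters and not a site shown to be bound. For Abcb1a, the RefSeq window (no CpG site, none of the motifs) belongs to a start 92986 bases upstream of the nearest GENCODE M21 transcript start of the gene, so it is not printed.

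In subfamily A, the lipid transporters, 1 of 6 tested genes passed. Abca12 (chr1:71242276-71414910, - strand; GENCODE M21, GRCm38), which loads glucosylceramides into lamellar granules in the skin, had normalized counts of 523, 429.8, 617, 542 and 934 in ApcMin/+ replicates 1 to 5 (mean 609 ± 194, SD, n = 5) and 259, 391, 213 and 249 in ApcMin/+; p16cis/cis replicates 1 to 4 (278 ± 77.7, n = 4). Replicate 5 was the highest of the ApcMin/+ mice, and no value overlapped between the genotypes. The log2 fold change was -1.12 ± 0.22 (SE), which is 2.17-fold lower, with an adjusted p of 0.00894 by limma.

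The other named A genes did not pass. Abca1, which exports cholesterol and phospholipid to apolipoprotein A-I, had 89.3, 101, 81.9, 191 and 71.5 in ApcMin/+ and 178, 79.8, 128 and 75.2 in ApcMin/+; p16cis/cis mice. One mouse of each genotype lay near the top of the range and the groups overlapped, with a log2 fold change of 0.11 ± 0.32 (adjusted p = 0.846, limma). Abca7, a phospholipid exporter and the A gene with the highest level per kb of exon, had 895, 1091, 1255, 1311 and 863 and 880.2, 1112, 745 and 1081, with overlap and a log2 fold change of -0.18 ± 0.16 (adjusted p = 0.473). Abca3, the lipid transporter of lung surfactant bodies and second in level, had 979, 1133, 1216, 1664 and 1222 and 1221, 809, 959 and 796, with overlap and a log2 fold change of -0.39 ± 0.16 (adjusted p = 0.118), and it passed without ApcMin/+; p16cis/cis replicate 1 (-0.52, adjusted p = 0.0490). Its exons share 914 bp with D330041H03Rik on the opposite strand, and reads from these loci cannot be told apart where counting did not use strand. Abca2 and Abca5 had log2 fold changes of 0.43 and -0.55 and did not pass. The 10 untested A genes (Abca4, Abca6, Abca8a, Abca8b, Abca9, Abca13, Abca14, Abca15, Abca16 and Abca17) had no normalized count above 23.5, the value of Abca14 in ApcMin/+; p16cis/cis replicate 4, and no count above 10 in any other gene or mouse among them. Abca8a and Abca8b, and likewise Abca14 to Abca16, are close relatives whose reads may be shared between them.

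Subfamily B held the drug pump of the colon and mitochondrial transporters, and 1 of 5 tested genes fell. Abcb1a (chr5:8660077-8748575, + strand), P-glycoprotein, which pumps drugs and toxins back into the lumen, had normalized counts of 5095, 6093, 6811, 7831 and 5642 in ApcMin/+ mice (6295 ± 1065, SD, n = 5) and 4021, 2662, 3168 and 2492 in ApcMin/+; p16cis/cis mice (3086 ± 686, n = 4). Replicate 1, the only male of the second group, was its highest, and it still lay below the lowest ApcMin/+ mouse. The log2 fold change was -1.04 ± 0.16 (SE), 2.05-fold lower (adjusted p = 0.00334, limma). In this bulk RNA, fewer cells of a type and less RNA per cell cannot be told apart. Its partner gene Abcb1b (chr5:8798147-8866315, + strand), the second mouse P-glycoprotein, was below the limit for testing, with 5.58, 1.90, 4.88, 1.27 and 14.8 in ApcMin/+ and 2.53, 3.19, 1.50 and 1.57 in ApcMin/+; p16cis/cis mice, or 26 and 6 reads in all. Abcb1a and Abcb1b are similar enough that reads may be assigned to either, and 553 bp of Abcb1a exons are shared with Gm42686 on the opposite strand.

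The other tested B genes, most of them mitochondrial, did not pass. Abcb8, an inner membrane transporter linked to iron export and the B gene second in level per kb, had 1155, 1319, 1435, 1886 and 1275 in ApcMin/+ and 1253, 1421, 1507 and 1267 in ApcMin/+; p16cis/cis mice, with overlap and a log2 fold change of -0.04 ± 0.14 (95% interval -0.33 to 0.26; adjusted p = 0.879, limma). Abcb10, which acts in heme synthesis, had -0.20, and Abcb6, a porphyrin transporter, had -0.55, with 2932 bp of its exons shared on the same strand with Gm29253. Abcb9, a lysosomal peptide transporter, had 0.14. Abcb4, which moves phosphatidylcholine into bile, had at most 6.81 in any mouse, and Abcb5 and Abcb11, the bile salt export pump of the liver, were listed at 0 in all 9 mice.

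Subfamily C, the exporters of conjugates and organic anions, had 8 tested genes, of which 2 fell and 6 did not pass. Abcc3 (chr11:94343295-94392997, - strand), the blood-facing exporter of glucuronides and bile salts, had the highest level of the 47 genes per kb of exon (1020.4 normalized counts per kb over the 9 mice). Its normalized counts were 5221, 6944, 7392, 7924 and 6559.6 in ApcMin/+ (6808 ± 1023, SD, n = 5) and 4860.4, 4656, 4502 and 4269 in ApcMin/+; p16cis/cis mice (4572 ± 249.7, n = 4). ApcMin/+ replicate 1 lay closest to the second group and did not overlap it. The fall was 1.48-fold, a log2 fold change of -0.56 ± 0.12 (SE; adjusted p = 0.0123, limma).

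Abcc5 (chr16:20331303-20426394, - strand), an exporter of cyclic nucleotides and nucleotide analogs, had 196, 270.04, 356, 399 and 286 in ApcMin/+ (302 ± 78.7, SD, n = 5) and 157, 153, 137 and 103 in ApcMin/+; p16cis/cis mice (137 ± 24.3, n = 4). As with Abcb1a and Abcc3, ApcMin/+ replicates 3 and 4 were the highest and replicate 1 the lowest of that group, and all lay above the second group. Its log2 fold change was -1.10 ± 0.21 (SE), 2.15-fold lower, with an adjusted p of 0.00743 (limma).

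Abcc2, the luminal counterpart of Abcc3, was near the limit of detection, at 10.04, 32.3, 31.2, 55.9 and 32.9 and 18.9, 7.98, 19.5 and 4.70. The genotypes overlapped, and the largest fitted change of the family (-1.30 ± 0.52, SE) did not pass (adjusted p = 0.105, limma). It rested on 148 and 36 reads in all, and it passed without ApcMin/+ replicate 1 (-1.66, adjusted p = 0.0407). Abcc10, an exporter of lipophilic drugs and second of the C genes in level, had 752, 744, 779, 889 and 641 in ApcMin/+ and 897, 1126, 805 and 1349 in ApcMin/+; p16cis/cis mice, a log2 fold change of 0.43 ± 0.15 (SE; adjusted p = 0.0693). The groups overlapped, and the gene passed by DESeq2 (adjusted p = 0.0375), without ApcMin/+ replicate 4 (0.0351) and without ApcMin/+; p16cis/cis replicate 3 (0.0325).

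Abcc1, which exports glutathione conjugates, had 667, 691, 717, 686 and 731 and 833, 772, 774 and 663, with a log2 fold change of 0.12 ± 0.10 (95% interval -0.10 to 0.33; adjusted p = 0.437, limma). Abcc4, an exporter of cyclic nucleotides and prostaglandins, had 397, 433, 347, 292 and 342 and 457, 286, 359 and 252, with -0.12 ± 0.18 (-0.52 to 0.27; adjusted p = 0.678). Values of both genes overlapped between the genotypes. Abcc6, whose loss gives soft tissue calcification, and Abcc8, the sulfonylurea receptor, had 0.18 and 0.40 and did not pass. Abcc9 and Abcc12 were not tested, with no value above 4.88.

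**Figure D2:**
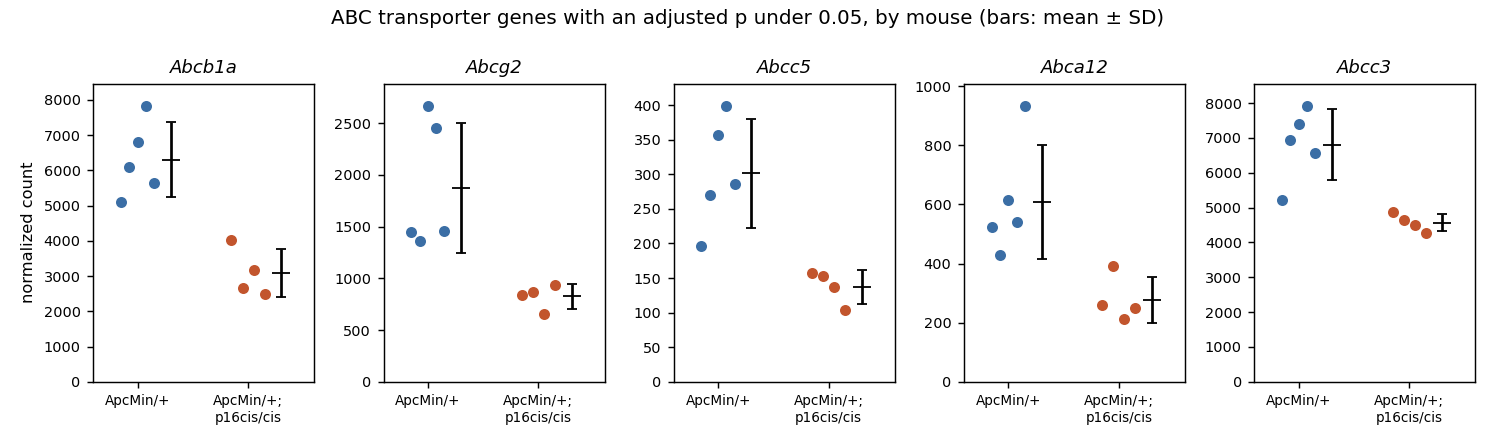
Normalized counts of the 5 ABC transporter genes with an adjusted p under 0.05, by mouse, in 5 ApcMin/+ (blue) and 4 ApcMin/+; p16cis/cis mice (orange), with mean ± SD beside the points. In each panel the points of the genotypes do not overlap, and the orange points are the lower ones.

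Subfamily D had 1 tested gene, which did not pass. Abcd4, which exports cobalamin from lysosomes, had 318, 322, 369, 459 and 293 in ApcMin/+ and 313, 324, 314 and 310.2 in ApcMin/+; p16cis/cis mice, with overlap and a log2 fold change of -0.14 ± 0.14 (SE; adjusted p = 0.522, limma). Abcd2, a peroxisomal transporter of fatty acids, was not tested. It had 3 reads in the 5 ApcMin/+ mice, 1 in each of replicates 2, 3 and 5, and 0 in ApcMin/+; p16cis/cis mice, where a count of 0 allows up to 3 reads in a library.

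The ribosome-associated E and F genes were among the highest of the family and 0 of the 4 passed by limma, edgeR or DESeq2 (1, Abcf3, had an unadjusted p under 0.05). Abce1, which splits ribosomes after termination, had 1924, 2357, 1877, 1228 and 2569 in ApcMin/+ and 1835, 2349.7, 2144 and 1559 in ApcMin/+; p16cis/cis mice, with overlap and a log2 fold change of 0.01 ± 0.20 (95% interval -0.42 to 0.44; adjusted p = 0.972, limma). Abcf1, which acts in translation initiation, had 3015, 2717, 2399, 2405 and 2347 and 2254, 2785, 2777 and 2547. Its level ranked 3 in the family (586 per kb of exon), and its log2 fold change was 0.01 ± 0.11 (-0.23 to 0.25; adjusted p = 0.964). Abcf2 had 751, 957, 918, 746 and 729 and 719, 819.9, 900.1 and 681, with overlap (-0.07 ± 0.13; adjusted p = 0.731), and Abcf3 had -0.25 (adjusted p = 0.127). The signs for Abce1 and Abcf1 flip under other scalings, as their values lie near 0.

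Subfamily G joins 1 drug pump to the sterol transporters, and the drug pump was the gene that fell. Abcg2 (chr6:58584523-58695676, + strand), breast cancer resistance protein, which exports drugs, porphyrins and urate, had 1447, 1364, 2668, 2449 and 1453 in ApcMin/+ (1876 ± 629, SD, n = 5) and 842, 866, 659.7 and 939.9 in ApcMin/+; p16cis/cis mice (827 ± 119, n = 4). ApcMin/+ replicates 3 and 4 stood well above the other 3 mice of the group, and these in turn lay above the whole second group. The log2 fold change was -1.13 ± 0.21 (SE), 2.19-fold lower (adjusted p = 0.00662, limma). After the correction for GC content and length it was -0.81 (adjusted p = 0.0604).

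The sterol transporters of the A and G subfamilies overlapped between the genotypes, and 0 of 4 passed by limma, edgeR or DESeq2, with 0 at an unadjusted p under 0.05. Abcg5 and Abcg8, which form the pump that returns plant sterols and cholesterol to the lumen, start head to head on chromosome 17 and share 82 bp of exon on opposite strands. Abcg5 had 224, 149, 221, 273 and 95.3 in ApcMin/+ and 269, 95.7, 138 and 279 in ApcMin/+; p16cis/cis mice, and Abcg8 had 89.3, 62.8, 101, 175 and 54.5 and 136, 92.5, 104 and 141. Mice high for one of the pair tended to be high for the other, with ApcMin/+ replicate 4 the highest and replicate 5 the lowest of its group for both, and ApcMin/+; p16cis/cis replicate 4 the highest and replicate 2 the lowest of its own. The log2 fold changes were -0.03 ± 0.36 (-0.81 to 0.76; adjusted p = 0.969, limma) and 0.39 ± 0.31 (-0.28 to 1.06; adjusted p = 0.409). Abcg1, which passes cholesterol to high-density lipoprotein, had 52.4, 45.6, 53.7, 26.7 and 32.9 and 54.3, 28.7, 79.6 and 36.03, with 0.17 ± 0.33 (-0.56 to 0.90; adjusted p = 0.761). Abcg3 and Abcg4 were not tested, with at most 9.51 and 12.8 in any mouse.

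**Figure D3:**
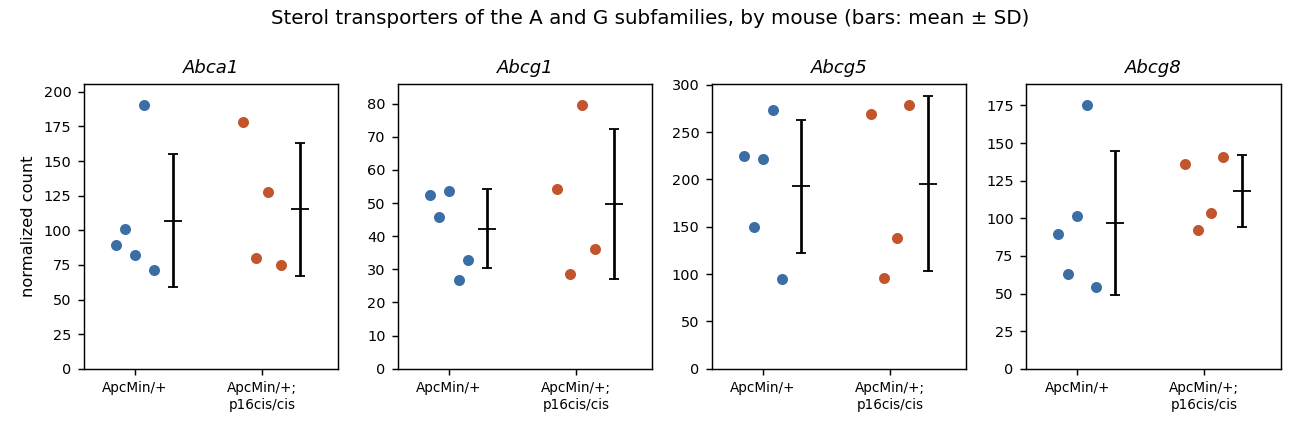
Normalized counts of the sterol transporters Abca1, Abcg1, Abcg5 and Abcg8 by mouse, in 5 ApcMin/+ (blue) and 4 ApcMin/+; p16cis/cis mice (orange), with mean ± SD beside the points. The ranges of the genotypes overlap in all 4 panels, and ApcMin/+ replicate 4 (190.7) stands apart for Abca1.

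Levels between genes were compared only as normalized counts per kb of exon. Abcc3 (1020.4), Abcb1a (888) and Abcf1 (586) were the 3 highest over the 9 mice, followed by Abce1 (330.2), Abcf2 (312), Abcb8 (294) and Abcf3 (215), and Abca5 (2.30) was the lowest of those tested. Summed over the 47 genes, the level was 4694 to 5957 per kb in ApcMin/+ and 3881 to 4238 in ApcMin/+; p16cis/cis mice, without overlap. Abcb1a and Abcc3 made up 39.3% to 47.3% of that sum in the first group and 30.9% to 37.4% in the second. Without them the sums were 2833 to 3145 and 2651 to 2914, which overlapped. Both genes passed as lower, so leaving them out narrows the gap by construction. Only replicate 2 of the ApcMin/+; p16cis/cis mice (2914) reached the ApcMin/+ range. These sums are descriptions and were not tested.

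**Figure D4:**
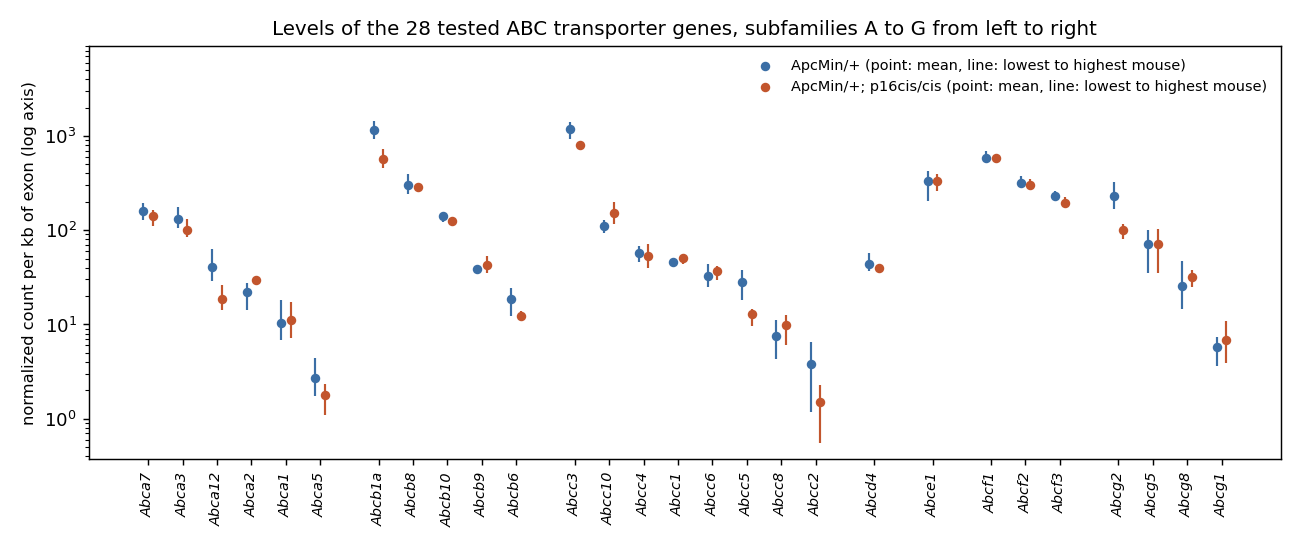
Level of each of the 28 tested ABC transporter genes, as normalized count per kb of exon on a log axis, in 5 ApcMin/+ (blue) and 4 ApcMin/+; p16cis/cis mice (orange). Points are means and lines run from the lowest to the highest mouse. Abcc3 and Abcb1a are the highest in ApcMin/+ mice and lower in the other group, while Abce1 and Abcf1 to Abcf3 keep overlapping ranges.

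Members of the ABC superfamily with other names did not pass by limma, edgeR or DESeq2 (0 of 3, with 0 at an unadjusted p under 0.05). Cftr, the chloride channel of the crypt, had 2691 to 3320.1 in ApcMin/+ and 2160.2 to 3002 in ApcMin/+; p16cis/cis mice (log2 fold change -0.19 ± 0.12, SE; adjusted p = 0.298, limma), and the peptide transporters Tap1 and Tap2 had 0.42 and -0.25. Of 6 peptide loading partners of TAP, 1 rose (Tapbp, 0.40; median of the 6, 0.03). Counts for partner genes are read against the same shares of all tested genes, 8.75% lower and 8.14% higher. Because the lists were chosen with earlier results of these data known, these counts are descriptions and not a test of any list.

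Of 16 tested genes listed as solute carriers for bile acids, organic anions and drugs, 7 fell, 0 rose and 9 did not pass. The median log2 fold change of the 16 was -0.53 against -0.00 over all genes tested. Slc51a, a subunit of the bile acid exporter on the blood-facing side, had 2049, 1604, 2379, 4115 and 2351 in ApcMin/+ and 785, 1410.1, 1301 and 974 in ApcMin/+; p16cis/cis mice, with no overlap and a log2 fold change of -1.12 ± 0.24 (SE; adjusted p = 0.0116, limma). The other subunit, Slc51b, overlapped between the genotypes and did not pass (-0.04, adjusted p = 0.929, limma). Like Slc51a, the bile acid importer Slc10a2 fell, by -1.21 on the log2 scale, although its groups overlapped. The others were the drug extruder Slc47a1 (-1.83), the organic anion importer Slco2b1 (-0.72), the chloride-bicarbonate exchanger Slc26a3 (-1.23) and the carnitine and ergothioneine carriers Slc22a5 (-0.77) and Slc22a4 (-1.21).

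Of 14 tested genes listed as partners and acceptors of sterol and phospholipid efflux, 5 fell, 0 rose and 9 did not pass, with a median of -0.32. The list also holds genes of lipoprotein assembly and cholesterol import, which are among those that fell. The apolipoproteins Apoe (-0.20) and Apoc1 (0.57) did not pass, and Apoa1 was not tested. Apob, the scaffold of lipoproteins, had 2313, 2004, 3079.9, 2837 and 2000.01 and 655, 708, 963 and 1217, with no overlap and a log2 fold change of -1.49 ± 0.19 (SE; adjusted p = 0.00183, limma). Mttp, which loads lipid onto Apob, had -1.34, and Lpcat3, which remodels phospholipids, had -0.65. Npc1l1, the cholesterol importer that works against Abcg5 and Abcg8, was low, at 11.2 to 122 and 1.50 to 7.98 (-2.57; adjusted p = 0.0211), and 1 mouse, ApcMin/+ replicate 4, gave the upper value. Pltp, a phospholipid transfer protein, was also low (-1.70).

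Nuclear receptors and other factors known to act on ABC transporter genes were mixed, with 2 of 20 tested lower and 2 higher and a median of -0.12. These counts are near the shares of all tested genes, 8.75% lower and 8.14% higher. An unadjusted p under 0.05 (limma) was found for 8 of the 20, and 5 passed by DESeq2. Ppara, the fatty acid receptor, had 164, 188, 195, 277 and 276 in ApcMin/+ and 138, 94.1, 109.7 and 61.1 in ApcMin/+; p16cis/cis mice (-1.15 ± 0.25, SE; adjusted p = 0.0111, limma), and Nfe2l2, the oxidative stress factor, had a log2 fold change of -0.48. Ppard (0.47) and the sterol receptor Nr1h2 (0.60), which acts on Abca1 and Abcg1, rose. Values of these 4 genes did not overlap between the genotypes.

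Among 11 peroxisomal partners of the D subfamily, 3 fell, 0 rose and 8 did not pass, with a median of -0.38. Hsd17b4, an enzyme of peroxisomal fatty acid oxidation, ranged over 1965 to 2777 in ApcMin/+ and 1104 to 1286 in ApcMin/+; p16cis/cis mice without overlap (-0.98 ± 0.12, SE; adjusted p = 0.00155, limma). Ehhadh, of the same pathway, had -1.02, and Pex11a, a peroxisome division factor, had -0.65. Of 11 mitochondrial heme and iron-sulfur genes, which serve the same pathways as Abcb10, 1 fell (Fech, the last enzyme of heme synthesis, -0.46) and 1 rose (the iron importer Slc25a28, 0.78), with a median of 0.09. Of 10 ribosome partners of Abce1 and the F genes, 0 passed by limma or edgeR, 3 had an unadjusted p under 0.05 and 2 passed by DESeq2, with a median of -0.15.

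Cell type markers were counted over 14 lists. Of 65 markers tested, 7 fell (10.8%) and 4 rose (6.15%), against 8.75% and 8.14% of all tested genes. Of 8 surface colonocyte markers, 2 fell (Slc26a3 -1.23 and Clca4a -1.15) and 1 rose (Slc37a2, 1.07). The 5 that did not pass had log2 fold changes from -0.81 (Car1) to -0.17 (Guca2a), and the list median was -0.58. Slc26a3 is also counted among the solute carriers. Summed counts of the 8 markers were 121227 to 256616 in ApcMin/+ and 84154 to 113474 in ApcMin/+; p16cis/cis mice, without overlap. The marker with the highest mean was Car1 (64999.5 to 165058 and 40059.5 to 68016), which did not pass (adjusted p = 0.075, limma), and without Car1, a choice made after seeing the data, the sums were 43632 to 91559 and 32718 to 55703 and overlapped. Of 7 crypt stem and cycling markers, 2 rose (Birc5 0.46 and Mki67 0.92). The stem cell genes Lgr5 (0.10, adjusted p = 0.877, limma), Smoc2 (0.24, adjusted p = 0.473) and Ascl2 (0.65, adjusted p = 0.099) did not pass. Log2 fold changes of the 7 ran from 0.10 to 0.92 (median 0.37), with 4 at an unadjusted p under 0.05. Sums of the 7 were 5662 to 8527 and 8882 to 12043 without overlap, and 3511 to 5490.1 and 4825 to 6848 with overlap when Mki67 was left out. Of 7 goblet markers, Spink4 rose (1.41) and 6 did not pass, among them Zg16 (-0.89). Of 5 enteroendocrine markers, Chga (-0.69) and Chgb (-1.11) fell and 3 did not pass, among them Pyy (0.88) and Gcg (0.48), with a list median of -0.12. Jchain (1 of 6 B and plasma cell markers), Col3a1 (1 of 4 fibroblast markers) and Cidec (the 1 adipocyte marker tested) fell as well. Log2 fold changes of the 6 B and plasma cell markers ran from -2.65 to -0.76 (median -2.08), and 4 passed by DESeq2. Those of the 4 fibroblast markers ran from -2.92 to -0.56 (median -1.03), and 1 passed by DESeq2. Of 22 tested T cell, macrophage, tuft, smooth muscle, endothelial and enteric nerve markers, 0 passed by limma or edgeR, 4 had an unadjusted p under 0.05 and 2 passed by DESeq2. Medians of these lists ran from -1.47 (smooth muscle, 5 tested markers at -1.65 to -0.24) to 0.60 (enteric nerve, 2 tested). Sums of B and plasma cell markers were 35.6 to 927 and 36.0 to 188. Cidec had 123 to 422 and 41.7 to 90.2, while the other adipocyte markers together reached at most 11.2 in any mouse, with Lep at 0 in all mice. The part of these markers in the ABC transporter differences was not tested.

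Library composition also moved with the genotype. Among tested genes cut into 4 equal classes by GC content, the median log2 fold change of all tested genes ran from -0.21 in the lowest to 0.18 in the highest. Abcg2 was in the lowest class, Abca12 and Abcb1a in the next and Abcc3 and Abcc5 in the one above. After the correction for GC content and length, 4 of the ABC transporter genes passed as lower and 0 as higher, with Abcb1a at -0.86 (adjusted p = 0.0134, limma), Abca12 at -0.96, Abcc3 at -0.59 and Abcc5 at -1.05. With the mitochondrial share as a covariate none of the 28 genes passed (adjusted p of the 5 genes 0.848 to 0.898), while 1, Abca12, had an unadjusted p under 0.05. In that fit 0 of all 14410 genes passed (lowest adjusted p = 0.663, limma; 798 at an unadjusted p under 0.05). This share did not overlap between the genotypes, so its part and that of the genotype cannot be told apart.

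The groups also differed in sex. With sex as a covariate the 5 lower genes still passed, and 2 of them had a fold change over 2, with Abcb1a at -0.89 and Abcc5 at -0.96. In the 5 females alone (2 ApcMin/+ and 3 ApcMin/+; p16cis/cis), 3 genes passed as lower and 0 as higher, and Abcc3 (adjusted p = 0.148) and Abcc5 (0.0912) did not pass. A test of a different genotype effect in females and males passed for none of the 28 genes (lowest adjusted p = 0.731, limma), with 0 genes at an unadjusted p under 0.05 and only 1 male in the second group.

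**Figure D5:**
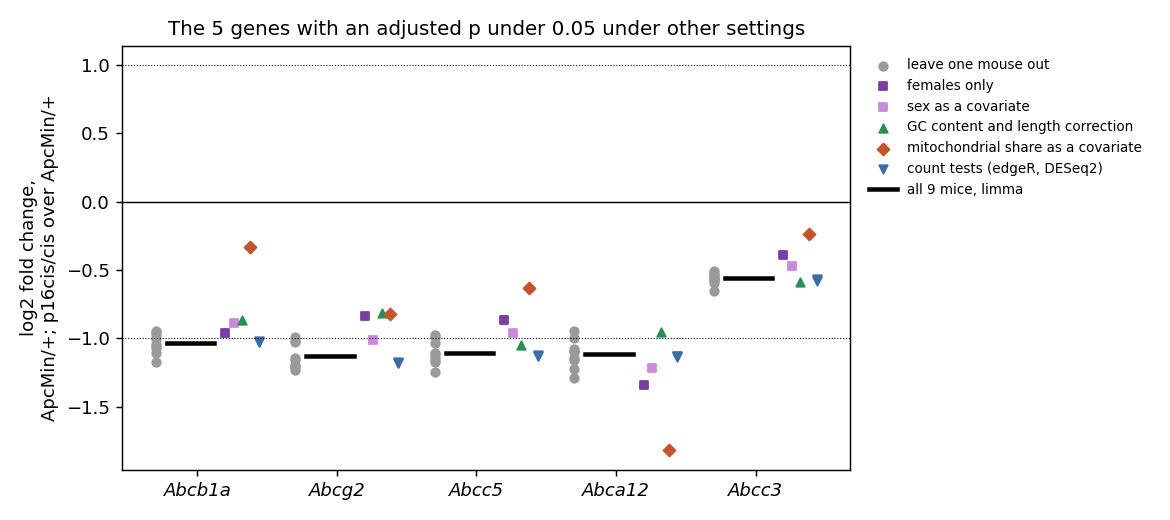
Log2 fold change of the 5 genes with an adjusted p under 0.05, under other settings than the test on all 9 mice (black bars). Grey points leave out 1 mouse each, and dotted lines mark a fold change of 2. The direction of all 5 is the same in each setting drawn, and the largest shifts are those with the mitochondrial share as a covariate (Abcb1a -0.33, Abca12 -1.82).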

How the data were processed

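Colonic mucosa RNA of 5 ApcMin/+ and 4 ApcMin/+; p16cis/cis mice was compared, with 1 library per mouse and groups taken from the labelled genotype. The authors deposited 1 table of signal values, read counts per gene scaled by DESeq2-type size factors. Per the methods, BGISEQ-500 reads were aligned with BOWTIE2, quantified with RSEM and compared with DESeq2, while tool versions, strandedness, build and gene models are not given in the sources used here. Dividing each value by that of 1 read gave whole reads for 100% of positive values, to within 0.01 reads. Exon lengths, positions and GC content came from GENCODE M21 (GRCm38), in which 54079 identifiers were found, 52480 with the same version.

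The main test was limma 3.58.1 (R 4.3.3) on log2(normalized count + 1), a scale that understates fold changes of low genes, using its variance trend, genotype alone and Benjamini-Hochberg adjustment. It covered the 14410 genes that reached 10 in no fewer than 4 mice. A call needed an adjusted p under 0.05, and a fold change over 2 where stated. Because the values are normalized, edgeR 4.0.16 and DESeq2 1.42.0 served as alternatives on the recovered reads, beside a pseudocount of 0.1, other filters, TMM scaling, sex, females only, a replicate block, a loess correction (span 0.5) for GC content and length, the mitochondrial share, Bonferroni adjustment and leaving out each mouse. The scripts were tested on simulated data.

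The genes and lists were chosen with earlier results of these data known. Full values are given for genes with an adjusted p under 0.05, the 2 genes per subfamily highest per kb, and Abca1, Abcb1a, Abcb1b, Abcc1 to Abcc4, Abcd2, Abce1, Abcg1, Abcg2, Abcg5 and Abcg8. Some further genes with a matching symbol or in the partner lists are not reported here and are in no count of these genes. Same-numbered mice of both genotypes are different animals, and the deviations from their group means correlated at -0.18 to 0.14 (mean 0.02), so the numbers were not taken as pairs. RefSeq upstream windows were found for 37 of the 47 genes (43 starts). Limits of 3 reads cover counting error only.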

Additional observations from a re-analysis of the deposited data

Results flagged for a closer look

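The normalized count of Abca1 in ApcMin/+ replicate 4 was 190.7, where the other 4 mice of that genotype had 71.5 to 100.8. The same mouse also had the highest normalized counts of Abcg5 and Abcg8 in its group. It stood out by the gap to the nearest mouse relative to the range of the group (Dixon's test). In 40 groups checked this gave 1, and chance gives about 2.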

How the results depend on the processing

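The direction of the 5 genes with an adjusted p under 0.05 was the same under all 22 alternatives fitted, and under a pseudocount of 0.1, other filters, edgeR, DESeq2 and TMM scaling with limma all 5 had an adjusted p under 0.05. Genes lower by over 2-fold numbered 4, and 2 with sex as a covariate, 1 in females only, 1 after the GC and length correction, 1 after that correction with the replicate block, 0 with the mitochondrial share, 0 with Bonferroni adjustment and 2 to 5 leaving out 1 mouse. Higher genes at an adjusted p under 0.05 numbered 0, and 1 (Abcc10) by DESeq2 and 0 to 1 leaving out 1 mouse, with 1 without ApcMin/+ replicate 4 or ApcMin/+; p16cis/cis replicate 3. Lower genes numbered 5, and 4 after the GC and length correction, 3 in females only, 0 with the mitochondrial share and 5 to 6 leaving out 1 mouse. The median log2 fold change turned to 0.036 in females only and 0.050 with the mitochondrial share, and was -0.15 to -0.071 leaving out 1 mouse. The cause was not tested beyond each setting's construction. The replicate block, which leaves out ApcMin/+ replicate 5, gave 3 genes lower by over 2-fold, 5 lower and 0 higher, a median of -0.15, and changed no call among the 5 at an adjusted p under 0.05.

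Signs that turned belong to genes that did not pass with all 9 mice. With the replicate block these were Abca1 -0.011 and Abcf1 -0.022. With the mitochondrial share they were Abca3 0.21, Abcb8 0.090, Abcc2 0.58, Abcc4 0.38, Abcd4 0.0078, Abce1 -0.30, Abcf1 -0.28, Abcf2 0.094 and Abcg5 1.10. In females only they were Abca7 0.13, Abcb8 0.20, Abcd4 0.050, Abce1 -0.16, Abcf2 0.10 and Abcg5 0.079, and with sex as a covariate Abcb8 0.013, Abce1 -0.076, Abcf1 -0.045 and Abcg5 0.19. Other scalings gave Abce1 -0.020 and Abcg5 0.024 (edgeR, TMM), Abce1 -0.013 and Abcg5 0.033 (edgeR, RLE), Abce1 -0.015 and Abcg5 0.029 (DESeq2) and Abcf1 -0.0019 (TMM with limma), and the GC and length corrections gave Abcf1 -0.065 and, with the replicate block, -0.088. Leaving out 1 mouse moved Abca1 over -0.13 to 0.34, Abcb8 over -0.11 to 0.072, Abcc4 over -0.28 to 0.0063, Abce1 over -0.15 to 0.12, Abcf1 over -0.027 to 0.075, Abcg1 over -0.089 to 0.39 and Abcg5 over -0.26 to 0.27.

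The 19 genes below the limit for testing, Abcb1b and Abcd2 among them, were not in the main test. A limma fit of all genes with a positive value in at least 1 mouse gave 5 ABC transporter genes lower and 0 higher at an adjusted p under 0.05.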
